A study of Mus musculus with 4 samples.

Results

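The 5 antigen receptor loci of the mouse were examined in DNA of hippocampal microglia, a myeloid cell that does not assemble these genes. The loci are Igh (immunoglobulin heavy chain, chr12:113258001-116010000), Igk (kappa light chain, chr6:67555001-70727000), Igl (lambda light chain, chr16:19026001-19261000), Tcra/Tcrd (T cell receptor alpha and delta chains, chr14:52427001-54225000) and Tcrb (T cell receptor beta chain, chr6:40891001-41559000), all in mm10. The regions described are the 1-kb tiles of these loci in which at least 1 library listed 3 or more CpGs. There were 5162 such tiles among the 8625 tiles of the loci, and 1900146 in the whole genome. Igh held 1707 of them, Igk 1876, Igl 138, Tcra/Tcrd 1030 and Tcrb 411. The choice used the number of listed CpGs and no methylation value.

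Microglia from the hippocampus of Tmem119-tdTomato+/- mice, which carry a red fluorescent protein under a microglial gene on 1 allele, were profiled at 3 weeks postpartum by whole-genome bisulfite sequencing. The 4 libraries were 2 from control mice and 2 from mice labelled FGR, in a series whose title names intrauterine growth restriction. All 4 carried the reporter. The sources used here do not give how growth restriction was brought about, how the cells were isolated, the strain, or whether a library pooled several mice. Nothing in them says that replicates came from separate animals, so p-values between groups measure only the spread between these libraries. Each library listed 7615146 to 13578464 cytosines in CpG context, with a mean coverage of 6.51 to 6.76 reads on the strand of the cytosine. Over the autosomes outside the loci the methylation level, the share of reads that kept the C, was 74.7% to 76.4%. A level between 0% and 100% in bulk DNA cannot tell a share of methylated cells from a share of methylated alleles in each cell.

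Each locus holds variable (V), joining (J) and constant (C) segments, with diversity (D) segments between V and J in Igh, Tcrd and Tcrb. In developing B and T cells the RAG1/RAG2 recombinase joins V, D (where present) and J segments at the recombination signal sequences that flank them. Before that, a locus is opened by enhancers and by transcription from promoters ahead of the segments. In other cells the segments stay in the germline arrangement. In cells of the lymphoid line, loss of methylation at these enhancers and segments is known to accompany the opening of a locus. The heavy chain locus has an enhancer, called Eµ, in the intron between the J segments and Ighm, the gene of the IgM constant region.

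The loci were poor in CpGs. They held 4.03 to 4.46 listed CpGs per kb, against 4.83 to 9.29 in the 500 kb on each side. RefSeq (GRCm38.p6, the assembly of mm10) gave promoter sequence for 28 start sites of other genes inside the loci, and none for a V segment. All 35 listed CpGs in these promoters fell on a CG of the RefSeq sequence. The dinucleotide CG, which reads the same on both strands, occurred in the 250 bases before the start in 14 of the 28 (50%), against 92.4% of 31396 autosomal promoters of that table, with a median of 0.5 against 6 occurrences. Of these, 3 are shown because they carry CpGs with reads at high, middle and low levels. Each runs 5′ to 3′ on the strand of its gene over the 250 bases before the start, with CG in capitals.
1700074P13Rik (chr6:40940558-40940807, minus strand, Tcrb): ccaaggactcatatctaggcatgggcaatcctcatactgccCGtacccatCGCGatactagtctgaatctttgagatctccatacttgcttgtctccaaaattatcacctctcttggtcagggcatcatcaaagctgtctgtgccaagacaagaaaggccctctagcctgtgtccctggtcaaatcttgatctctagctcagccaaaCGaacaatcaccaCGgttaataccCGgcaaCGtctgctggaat
Gm30392 (chr14:53961653-53961902, minus strand, Tcra/Tcrd): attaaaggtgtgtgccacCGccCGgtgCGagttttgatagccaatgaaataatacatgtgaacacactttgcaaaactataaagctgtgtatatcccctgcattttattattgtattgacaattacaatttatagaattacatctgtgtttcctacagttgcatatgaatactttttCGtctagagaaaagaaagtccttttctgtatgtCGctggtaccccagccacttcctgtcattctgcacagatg
Olfr1508 (chr14:52467462-52467711, minus strand, Tcra/Tcrd): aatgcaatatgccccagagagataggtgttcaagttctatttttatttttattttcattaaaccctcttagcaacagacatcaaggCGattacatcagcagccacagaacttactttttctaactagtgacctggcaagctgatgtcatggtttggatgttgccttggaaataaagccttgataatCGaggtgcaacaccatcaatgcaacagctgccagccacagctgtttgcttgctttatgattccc

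At the start of 1700074P13Rik, 113 of 126 reads over 8 CpGs were methylated (89.7%), counting all libraries and the first 50 bases of the gene as well. At Gm30392 the count was 35 of 62 reads over 6 CpGs (56.5%). At Olfr1508, an olfactory receptor gene at the edge of the Tcra/Tcrd locus, it was 17 of 43 reads over 2 CpGs (39.5%). In the 2 kb around the start of Gm30392, control 1, control 2, FGR 1 and FGR 2 had 51.4%, 45.3%, 32.0% and 54.0%, and around 1700074P13Rik they had 79.5%, 85.03%, 81.8% and 76.4%. The libraries of these 2 start regions did not overlap. Around the start of Olfr1508 the 4 libraries had 71.0%, 57.1%, 68.0% and 59.5% from 2 to 7 CpGs. All lay above those of Gm30392, so the order of these 2 genes changed with the stretch measured. Adam6a and Adam6b, sperm protein genes that lie among the segments of Igh, had no listed CpG in this stretch.

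The label of the cells was checked at the less methylated end of marker genes. The ends of P2ry12, Cx3cr1 and Sall1, which mark microglia, were at 2.47%, 3.04% and 0% on the mean of the 4 libraries (for Sall1, the library with the fewest reads allows up to 7.50%). Over 9 of 10 measured microglial markers the range was 0% to 83.7%, with a median of 35.5%. The 7 B cell markers ranged from 20.4% (Pax5) to 86.3% with a median of 72.5%, and the 9 T cell markers from 8.74% (Tcf7) to 92.2% with a median of 67.7%. Neuronal (4 measured), astrocyte (3 of 4) and oligodendrocyte (4) markers had medians of 22.8%, 23.2% and 69.7%, so a low level at a gene end was not specific to microglial genes. DNA of lymphocytes or of other brain cells among the microglia was not tested as a source of any value given here.

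The heavy chain locus stood out. Its level was 63.0% and 63.2% in the control libraries and 61.9% and 62.5% in the FGR libraries. Its 500-kb flanks had 77.3% and 77.9% in the controls and 75.3% and 77.2% in FGR. All 4 locus values lay more than 10 points below all 4 flank values. The mean difference within a library, locus minus flank, was -14.3 ± 0.597 points (SD, n = 4; two-sided exact sign-flip permutation p = 0.125, the smallest that 4 libraries can give).

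The kappa locus had 68.2% and 67.5% in the controls and 66.4% and 67.5% in FGR, against 74.4% to 76.1% in its flanks. The difference was -7.68 ± 0.746 points (SD, n = 4) and was negative in 4 of 4 libraries (exact sign-flip p = 0.125). The other loci had smaller differences from their 500-kb flanks. The lambda locus, at 67.9% and 69.1% in the controls and 70.0% and 69.7% in FGR, differed from its flanks by -2.86 ± 2.12 points (exact sign-flip p = 0.25), with FGR 1 slightly above its flank. Tcra/Tcrd, at 73.9%, 73.1%, 72.9% and 72.9%, differed by -1.21 ± 1.88 points (exact sign-flip p = 0.25), also with FGR 1 above its flank. Tcrb, at 71.9%, 72.2%, 70.4% and 70.4%, differed by -1.05 ± 0.653 points, negative in 4 of 4 libraries (exact sign-flip p = 0.125). The SD of the lambda difference was nearly as large as the difference, and that of Tcra/Tcrd larger. The sizes of these differences depended on the choice of CpGs and flanks. Against 250-kb flanks the lambda difference was -5.36 points, and on CpGs listed in all 4 libraries the lambda and Tcra/Tcrd differences were -4.35 and -4.68, negative in 4 of 4 libraries (exact sign-flip p = 0.125 for each). Without control 2 the difference of Tcra/Tcrd was -0.295.

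**Figure D1:**
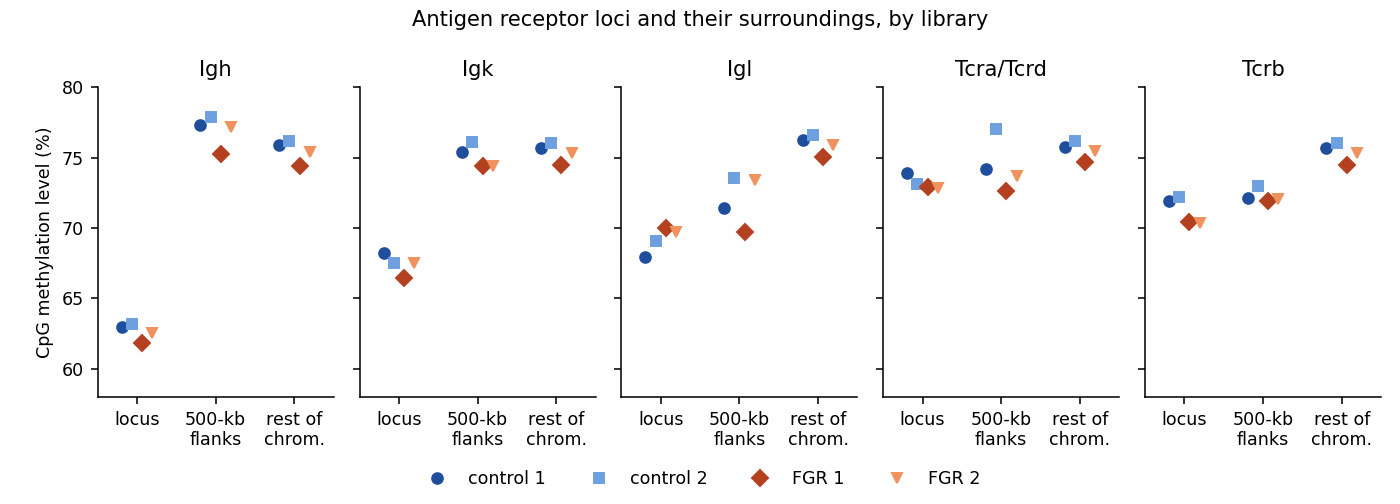
Methylation level in percent (y axis, starting at 58%) of each locus, of its 500-kb flanks and of the rest of its chromosome, 1 point per library (blue: control, orange and red: FGR). The Igh points lie between 61.9% and 63.2%, below every flank point of that locus, and the Tcra/Tcrd points overlap their flanks.

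Against the rest of the chromosome outside the loci all 5 loci were lower in 4 of 4 libraries. The mean differences were -12.8 points for Igh, -7.98 for Igk, -6.77 for Igl, -4.17 for Tcrb and -2.34 for Tcra/Tcrd (exact sign-flip p = 0.125 for each). The immunoglobulin loci thus had larger differences from their chromosomes than the T cell receptor loci, and the difference between loci was not tested. The mean reads per listed CpG in Igh were 6.94 to 8.38 over the libraries, and 6.43 to 7.45 in its flanks. In Tcrb they were 6.66 to 8.36, and 6.72 to 8.14 in its flanks. With at least 10 reads per CpG, locus minus flank was -19.5 points in Igh and -12.0 in Igk. The part of coverage in these differences was not tested.

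The number of CpGs in a tile moves with the level, and the loci hold few tiles rich in CpGs. Among tiles with 1 to 4 CpGs listed in any library, Igh had 56.2% ± 0.969 (SD, n = 4) and the autosomes outside the loci 70.1% ± 0.241. With 5 to 9 CpGs the values were 63.3% ± 0.167 and 76.7% ± 0.379, and with 10 to 19 CpGs 75.2% ± 0.956 and 79.1% ± 0.778. Igh was lower in each of these classes. In tiles with 20 or more CpGs, which elsewhere include unmethylated CpG islands, the order was the other way. There the 14 tiles of Igh had 85.7% ± 1.95, the 34 of Igk 86.5% ± 0.953 and the 15 of Tcra/Tcrd 87.5% ± 1.92, against 64.5% ± 3.95 on the autosomes.

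Igk followed Igh with smaller gaps, at 61.0%, 67.1% and 78.2% in the 3 classes below 20 CpGs. Tcra/Tcrd, at 67.9%, 72.1% and 77.0%, and Tcrb, at 69.0%, 71.0% and 77.9%, were nearer than Igk to the autosomes in the 2 classes with the fewest CpGs.

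In 100-kb windows the lower level of Igh extended over nearly the whole V array. Of its 27 windows with at least 100 listed CpGs in every library, 23 lay below 66.0%, the 10th percentile of all 23710 autosomal windows, as did 12 of 31 windows of Igk. None of the 14 windows of Tcra/Tcrd, the 6 of Tcrb and the 1 of Igl did. The highest window of Igh, chr12:113300001-113400000 among the constant region genes, had 75.8%, 75.6%, 76.2% and 73.2% in control 1, control 2, FGR 1 and FGR 2. The lowest, chr12:114400001-114500000 in the V array, had 60.1%, 55.0%, 55.6% and 56.2%. No library of the lowest window reached a library of the highest.

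In Igk the lowest window, chr6:68000001-68100000, had 56.8%, 60%, 57.97% and 56.9%, and the highest, chr6:70600001-70700000 near the J segments, had 74.7%, 76.8%, 74.3% and 76.3%. The windows of Tcra/Tcrd ranged only from 68.8% to 76.1% and those of Tcrb from 68.3% to 74.5%, as means of the 4 libraries. The single window of Igl, chr16:19100001-19200000, had a mean of 68.5%.

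**Figure D2:**
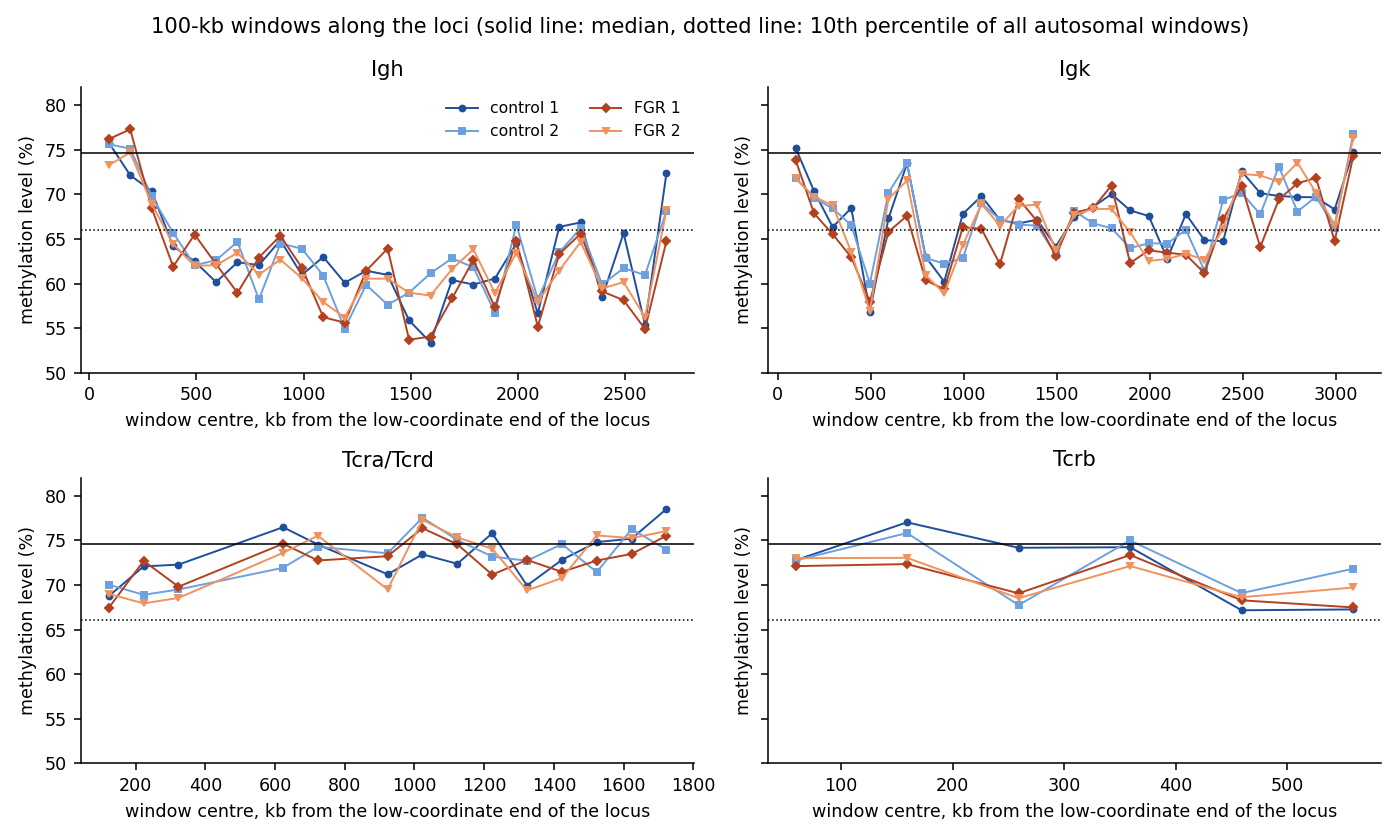
Methylation level in percent (y axis, 50% to 82%) of 100-kb windows against the distance of the window centre from the low-coordinate end of the locus in kb, 1 line per library, for the 4 larger loci. The solid line is the median (74.6%) and the dotted line the 10th percentile (66.0%) of all autosomal windows; in Igh the windows decline from the median at the constant region end to below the dotted line over the V segments, and lines join neighbouring measured windows across any window without enough CpGs.

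Within Igh the parts differed by role. The constant region genes with the sequence between them had 75.9%, 75.7%, 77.0% and 75.4% in control 1, control 2, FGR 1 and FGR 2. Inside the genes alone the levels were 76.9%, 78.2%, 76.3% and 76.9%. The D segments with the sequence between them had 75.8%, 80.4%, 76.8% and 75.7%, and the V array 61.7%, 61.9%, 60.4% and 61.3%. Thus the constant and D parts were near the level of the flanks, and the V array was below them in every library.

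Of the single constant region genes, Ighm (IgM) had a mean of 82.3% ± 2.36 (SD, n = 4), Ighd (IgD) 85.01% ± 5.91, Ighg1 83.1% ± 4.21, Igha (IgA) 78.1% ± 5.54 and Ighe (IgE) 77.1% ± 1.63. Ighg3, Ighg2b and Ighg2c, other IgG genes, had 71.2% ± 8.85, 70.0% ± 6.58 and 62.9% ± 4.73. The T cell receptor genes Trdc and Trac had 78.8% ± 3.55 and 79.0% ± 5.40. Igkc, the 4 Iglc genes, Trbc1 and Trbc2 had too few listed CpGs or reads in at least 1 library.

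A stretch of very low methylation lay in the interval between Ighm and the J segments. These 5783 bases, chr12:113422731-113428513, which hold the intronic enhancer, had 12.96%, 12.1%, 22.0% and 18.4% in control 1, control 2, FGR 1 and FGR 2, from 10 to 31 CpGs and 59 to 223 reads per library. All 4 libraries lay far below the stretch of the constant region genes on one side and that of the D segments on the other, each taken whole. The within-library differences were -59.6 ± 4.28 and -60.8 ± 6.03 points (SD, n = 4; exact sign-flip p = 0.125 for each). The comparison with these neighbours was chosen after the values had been seen. The D segment nearest to the J segments, Ighd4-1 with 500 bp on each side, had 22.7%, 40%, 33.3% and 8.33%. These values rest on 1 to 4 CpGs and 5 to 22 reads per library, and each lay below that of the whole D stretch.

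Inside this interval 23 neighbouring listed CpGs, chr12:113424243-113427994, each had a level below 20% when the reads of all libraries were summed. The run began 1513 bp from Ighm and ended 520 bp from Ighj4. It had 5 methylated of 116 reads in control 1, 0 of 128 in control 2, 1 of 34 in FGR 1 and 7 of 145 in FGR 2. A count of 0 of 128 allows a level of up to 2.34%. Together 3.07% of 423 reads were methylated (Wilson 95% interval 1.80% to 5.19%, counting error only). Every library was thus below 5% in this stretch. The ends of the run were set by the 20% limit on these same reads, so a summed level below 20% follows from the choice. The first CpG of the run lay 1270 bp before the next one and was listed in FGR 2 alone.

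The tile chr12:113427001-113428000 in this run, 514 bp from Ighj4, was the lowest of the 209 tiles that reached 5 CpGs and 20 reads per library. Its level was 3.33%, 0%, 3.45% and 3.64% from 29 to 60 reads per library. The 0% rests on 54 reads and allows up to 5.56%. The stretch of the J segments with the sequence between them, over 1320 bases, had 22.7%, 10%, 9.09% and 25.0%, from only 2 to 8 CpGs per library. It was low in every library, with a spread too wide to rank it against the interval. Inside the J segments alone only 4 CpGs were listed. Control 1 and control 2 had 0% there from 1 CpG each, FGR 1 had no listed CpG and FGR 2 had 39.3%.

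**Figure D3:**
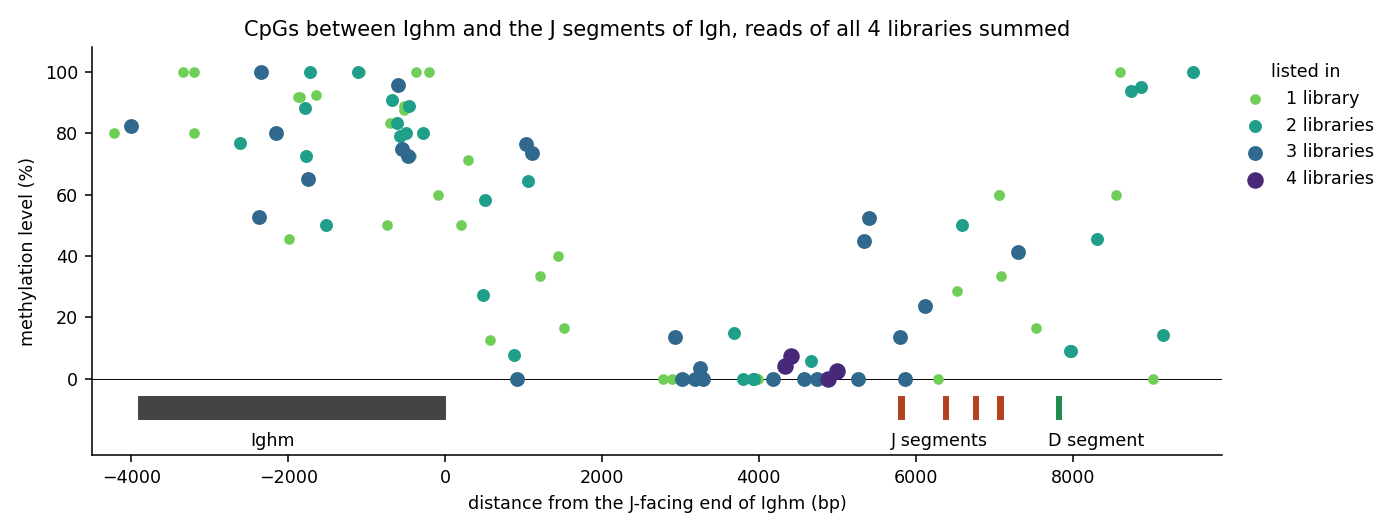
Methylation level in percent (y axis) of single CpGs around the interval between Ighm and the J segments of Igh, against the distance in bp from the end of Ighm that faces the J segments, with reads of all libraries summed. Colour and size give the number of libraries that list the CpG, bars under the axis mark Ighm, the 4 J segments and the nearest D segment; the points within Ighm lie above 40% and those of the run lie below 20%.

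Intervals between segments of Igk, Tcra/Tcrd and Tcrb were methylated. The interval between the J segments and Igkc, which in the kappa locus also holds an enhancer, had 77.6%, 78.9%, 83.5% and 76.8%. The interval from the V to the J segments of Igk had 70.5%, 74.3%, 65.8% and 64.96%. In Tcra/Tcrd the stretch from the J segments to Trac had 86.2%, 89.6%, 81.4% and 82.6%, and the stretch from Trdc to the alpha J segments 73.5%, 74.8%, 70.4% and 66.5%. The interval of Tcrb from Trbc2 to Trbv31, which holds the beta chain enhancer, had 65.3%, 67.2%, 68.8% and 61.0%. Every library of each of these intervals lay above every library of the heavy chain interval.

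Runs of at least 10 neighbouring CpGs below 20% were otherwise found once in Igk and once in Tcrb. The run of Igk, chr6:68668449-68668767, spanned 319 bp and had 3 of 83 reads methylated, with no listed CpG in control 1. The run of Tcrb, chr6:41543494-41543685, spanned 192 bp over Trbj2-5 and Trbj2-6, J segments of the beta chain, and had 0 of 50 reads methylated, all from control 1 and FGR 2. Igl and Tcra/Tcrd had none. The short run of Igk was listed in part by control 2, FGR 1 and FGR 2. The heavy chain run was listed in part by all 4 libraries, with 6 of its 23 CpGs in FGR 1.

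The V segments showed a dip at their edges. Within 1 to 200 bp outside an annotated V segment of Tcra/Tcrd, where promoters lie on one side and recombination signal sequences on the other, the level was 54.6%, 50.6%, 55.7% and 54.5% in control 1, control 2, FGR 1 and FGR 2. Inside the V segments of that locus it was 68.2%, 69.7%, 75.8% and 72.5%. The edge lay below the segment in every library. The difference, edge minus inside, was -17.7 ± 2.90 points (SD, n = 4), and edge minus the sequence more than 1000 and up to 10000 bp away was -20.4 ± 2.25 points (exact sign-flip p = 0.125 for both). The gene table gives no strand for the segments, so both sides were combined.

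In Igh the edge had 52.7%, 52.8%, 56.3% and 52.9%, against 60.3%, 60.1%, 64.5% and 64.1% inside, a difference of -8.57 ± 1.78 points (SD, n = 4; exact sign-flip p = 0.125). In Tcrb it had 74.4%, 64.8%, 68.4% and 66.3% from 19 to 48 CpGs, and edge minus inside was -7.57 ± 1.17 points (SD, n = 4; exact sign-flip p = 0.125). Edge minus the sequence farther away was -7.55 ± 2.56 points in Igh and -6.19 ± 3.29 in Igk (exact sign-flip p = 0.125 for both), but -3.76 ± 3.53 in Tcrb, where control 1 went the other way (exact sign-flip p = 0.25). In Igk edge and inside did not separate, at -2.88 ± 5.28 points (exact sign-flip p = 0.5). On CpGs listed in all 4 libraries edge minus inside was -3.66 points in Igh (exact sign-flip p = 0.25) and 3.601 in Igk (exact sign-flip p = 0.25), of the opposite sign, but -27.1 in Tcra/Tcrd and -15.5 in Tcrb (exact sign-flip p = 0.125 for both). Edge minus the sequence farther away was there -4.58 in Igh, -3.66 in Igk, -28.7 in Tcra/Tcrd and -14.1 in Tcrb (exact sign-flip p = 0.125 for each). On these shared CpGs the dip was thus larger in the T cell receptor loci and smaller in Igh and Igk than on all listed CpGs. With at least 10 reads per CpG, edge minus inside was -7.82 in Igk (exact sign-flip p = 0.125). These comparisons of edges were added after the values had been seen.

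**Figure D4:**
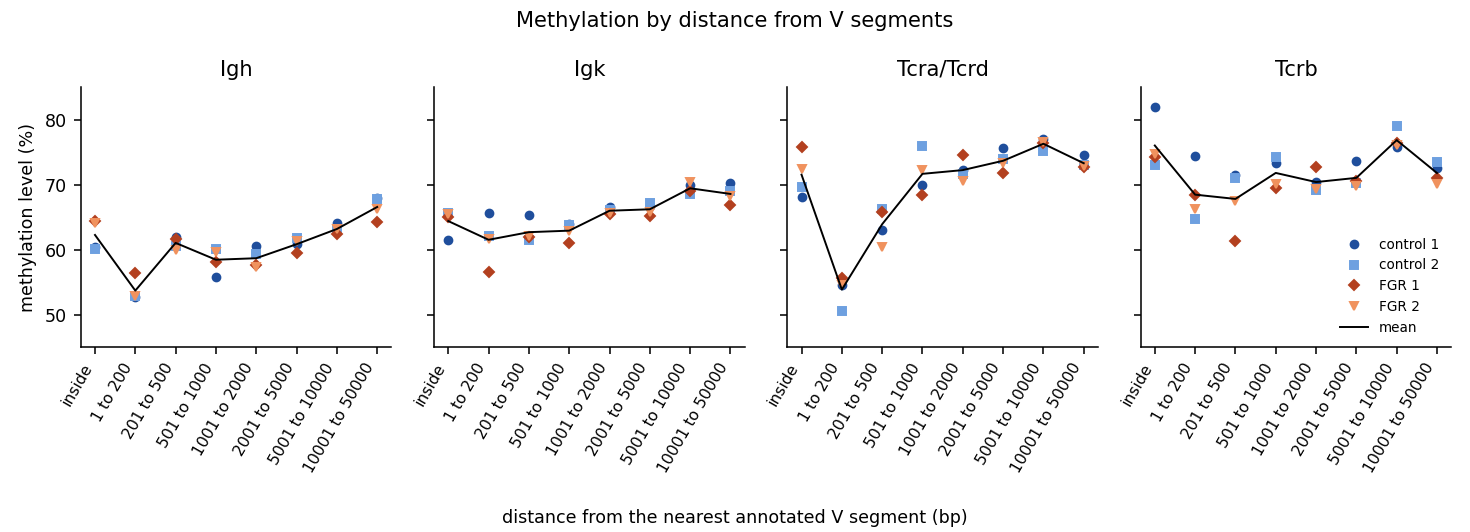
Methylation level in percent (y axis, 45% to 85%) of CpGs inside V segments and in classes of distance in bp from the nearest V segment, 1 point per library and a line through the means. The lowest class of Tcra/Tcrd is 1 to 200 bp, at 53.8%, and so is that of Igh, at 53.7%; Igk and Tcrb show a shallower course.

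Whole segments of all kinds differed less from the sequence between them. Segments minus the sequence between was +4.96 ± 1.89 points in Igh and +4.28 ± 3.44 in Tcrb, higher in 4 of 4 libraries, and -2.21 ± 2.499 in Igk, lower in 4 of 4 libraries (SD, n = 4; exact sign-flip p = 0.125 for each). Of the 604 CpGs inside segments of Igh, 244 lay in constant region genes, with a mean of 77.1%. Inside the V segments of Igh the mean was 62.3%, against 62.4% outside segments. The V segments were lower in both controls and higher in both FGR libraries. In Igl it was -6.87 ± 7.54 (exact sign-flip p = 0.25). In Tcra/Tcrd it was 0.0939 ± 2.86 (exact sign-flip p = 1). On CpGs listed in all 4 libraries the difference of Igh was -0.552 and that of Igl 15.8 points, and with at least 10 reads per CpG that of Igk was 0.497, so the sign in Igh, Igl and Igk depends on which CpGs are used.

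Families of V segments, which share sequence and often lie side by side, spanned a wide range. V segments of a family can be nearly identical, so reads could be placed on another copy, and the sources used here do not say how the aligner handled such reads. Of the Tcra/Tcrd families with at least 4 segments that could be read in every library, Trav15 was the lowest, with 28.3%, 40.8%, 41.4% and 43.9% over its 9 segments and 500 bp on each side. Trav4, the highest, had 72.4%, 68.9%, 73.7% and 74.8%. No library of Trav15 reached a library of Trav4. The pseudogene Trav15-3 alone gave 31 to 124 of the 70 to 312 reads per library in Trav15. Its mean level over the 4 libraries was 18.7%, and the level of the family without it was not computed.

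In Igh the range was from Ighv6 at 49.9% ± 5.53 (SD, n = 4, 7 segments) to Ighv8 at 67.2% ± 5.41 (16 segments). Ighv1, the largest family with 92 segments, had 58.5% ± 0.874. In Igk it was from Igkv14 at 55.9% ± 4.38 (8 segments) to Igkv6 at 76.4% ± 2.41 (9 segments). Igkv6 and Igkv8 lie intermingled toward the J end of the array, with the family Igkv3 between them and the J segments, yet Igkv8 had 56.5% ± 4.67 (13 segments). The 4 values of Igkv6, 75.0%, 77.5%, 73.9% and 79.2%, all lay above those of Igkv8, 52.9%, 56.3%, 53.5% and 63.1%.

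Single V segments were measurable in all 4 libraries for 43 of 184 in Igh, 29 of 162 in Igk, 32 of 136 in Tcra/Tcrd, 15 of 35 in Tcrb and 0 of 3 in Igl. The medians over these segments were 61.5%, 62.4%, 65.9% and 70.8%. The lowest was Trav15-3, a pseudogene at chr14:53766735-53767179, with 21.1%, 15.9%, 19.4% and 18.5% from 31 to 124 reads. The lowest of Igh, Ighv1-31, had 17.6%, 32.4%, 29.4% and 34.5% from 3 to 4 CpGs and 17 to 34 reads. The lowest of Igk, Igkv4-58, had 23.3%, 31.8%, 38.7% and 21.4% from 3 to 5 CpGs and 22 to 42 reads. These 3 segments were low in every library, which their choice by the lowest mean favours.

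At the other end Ighv8-10, a pseudogene, had 90.5%, 81.2%, 93.4% and 89.0%. Igkv1-136, another pseudogene, had 95.4%, 88.4%, 86.2% and 81.0%, Trav19 89.7%, 79.2%, 91.1% and 87.8%, and Trbv19 100%, 76.9%, 91.9% and 88.1%. The lowest of Tcrb, Trbv1, was uneven between libraries, with 86.1%, 46.4%, 23.8% and 35.7% from 21 to 36 reads. Its FGR minus control difference was -36.5 points (exact permutation p = 0.333, the smallest that 2 against 2 libraries can give). Control 1 carries much of it, since control 2 alone had 46.4% against the FGR mean of 29.8%.

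Single tiles were compared as well. To enter the test a tile had to reach 3 CpGs and 10 reads in each of the libraries, which 1010 of the 5162 tiles passed, 319 in Igh, 363 in Igk, 19 in Igl, 238 in Tcra/Tcrd and 71 in Tcrb. Tiles with a mean level under 50% made up 17.9% of those of Igh (57 tiles), 6.89% of Igk (25), 3.78% of Tcra/Tcrd (9), 1.41% of Tcrb (1) and 0% of the 19 of Igl, against 6.14% of the tiles of the autosomes outside the loci. Tiles above 90% made up 3.86% of those of the loci and 22.7% elsewhere. The median level was 72.0% against 81.1%.

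Beside the Igh tile next to Ighj4, the lowest tiles with 5 CpGs and 20 reads per library were chr12:114780001-114781000, 409 bp from Ighv1-25, in Igh and chr6:68374001-68375000 in Igk. The first had 44.9%, 36.7%, 45.9% and 40.2%, and the second 53.3%, 39.5%, 45.5% and 51.0%. In Tcra/Tcrd, chr14:52451001-52452000 over the olfactory receptor gene Olfr1509 had 68.3%, 37.2%, 39.0% and 56.3%. The libraries of this tile were far apart. The highest tile of Igh, chr12:115519001-115520000 over Ighv8-10, had 96.9%, 93.3%, 96.5% and 100%, and that of Tcra/Tcrd, chr14:54117001-54118000, 97.5%, 94.8%, 97.4% and 92.1%. Highly methylated tiles therefore occurred in the same loci as the low ones.

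The comparison of FGR with control asked whether these loci differ in methylation between growth-restricted and control mice. No tile of the loci was called (quasi-binomial test with limma-moderated dispersion, Benjamini-Hochberg adjustment over all 550538 autosomal tiles, called at adjusted p below 0.05 and at least 10 points). Of the 1010 tested tiles 0 were called, against 0.000182% of all tiles, which is 1 tile, and 46 had an unadjusted p below 0.05 (4.55%, against 5.01% of all tiles). The smallest adjusted p of this test in the loci was 0.584, and limma on log-ratios called 0 tiles of the loci too. In 338 tiles (33.5%) the 2 groups did not overlap, against 33% of all tiles. The median difference, FGR minus control, was -0.595 points in the loci and -0.317 outside them. FGR was lower in 531 of the 1010 tiles (52.6%), against 51.8% elsewhere.

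Of the 79 windows of 100 kb in the loci 0 were called, against 0% of all windows, by the same quasi-binomial test at 5 points. Unadjusted p was below 0.05 in 6 of them (7.59%, against 6.78%), and by limma on log-ratios 0 were called as well. FGR had the lower mean in 58 of 79 windows (73.4%) and in 69.0% of all windows. The groups did not overlap in 20 (25.3%), against 38% of all windows.

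Whole loci were compared between the groups too. FGR minus control was -0.889 points in Igh, -0.883 in Igk, 1.36 in Igl, -0.626 in Tcra/Tcrd and -1.67 in Tcrb, and -1.05 over the autosomes outside the loci. The groups did not overlap in the 5 loci or on the autosomes as a whole (exact permutation p = 0.333 for each), but in Igk the nearest control and FGR libraries both round to 67.5%. This separation depended on the processing. The groups of Igk overlapped with the highest coverage kept, over the member tiles alone, as a mean of CpG levels and on CpGs listed in all 4 libraries. Those of Igl, Tcra/Tcrd and Tcrb also overlapped on CpGs listed in all 4 libraries, those of Tcra/Tcrd as a mean of CpG levels, and those of Igh with at least 10 reads per CpG. On CpGs listed in all 4 libraries the difference of Igl was -1.22 points.

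FGR 1, which had the fewest listed cytosines, also had the lowest autosomal level. Without FGR 1 the difference was -0.560 points in Igh and -0.348 in Igk, both smaller, and -0.643 in Tcra/Tcrd and -1.68 in Tcrb. In Igk it was -1.42 without FGR 2 and -0.546 without control 1. In Tcra/Tcrd it was -0.225 without control 1 and -1.03 without control 2, and in Igl 0.8005 without control 1. Single libraries thus moved these differences by more than 1.5 times in every locus except Tcrb.

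**Figure D5:**
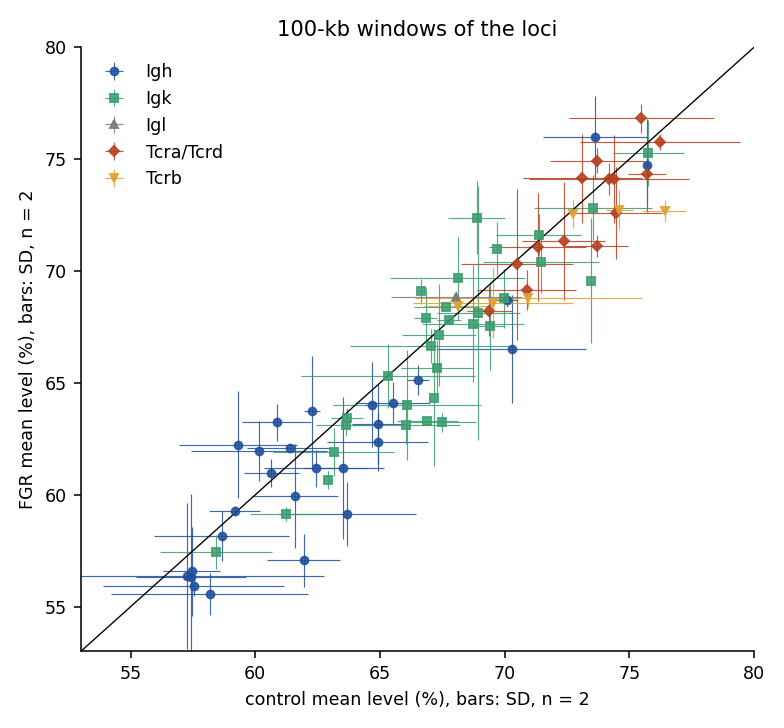
Mean level in percent of the 2 FGR libraries (y axis) against that of the 2 control libraries (x axis) for 79 windows of 100 kb, coloured by locus, with the SD of each group as bars and the line of equal levels. The windows lie along the line, 58 of the 79 below it.

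The largest differences among the tiles with 5 CpGs and 20 reads per library were in Tcra/Tcrd and Igk, and none passed the adjusted test. The tile chr14:53066001-53067000, 5763 bp from Trav13d-4, had 76.6% and 67.5% in the controls and 94.9% and 96.0% in FGR, from 39 to 101 reads. Both FGR libraries were above both controls, a difference of +23.4 points (quasi-binomial p = 0.00131, adjusted p = 0.584). The tile chr14:53893001-53894000, in Gm30392, had 72.9% and 66.7% in the controls and 85.2% and 88.5% in FGR. The tile chr14:53707001-53708000 had 54.8% and 48.1% against 64.7% and 66.7%, and chr6:68073001-68074000 had 56.5% and 67.1% against 75.0% and 75.9%. In all 4 tiles the groups did not overlap, which the choice of tiles by their difference favours. The tiles chr14:53893001-53894000 and chr6:68073001-68074000 had 0 CpGs listed in all 4 libraries. Their groups were thus not compared on a common set of CpGs.

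In the other direction, chr6:68953001-68954000 had 81.0% and 77.1% in the controls and 53.2% and 67.9% in FGR. The tile chr14:53364001-53365000 over Trav13n-4 had 83.0% and 82.1% against 69.8% and 58.6%. The tile chr14:54124001-54125000 in Gm30275 had 78.3% and 74.5% against 50% and 67.3%. The tile chr6:69849001-69850000 had 80.6% and 92.3% against 70.9% and 70.8%, but on the 3 CpGs listed in all libraries its difference was 5.95 points, of the opposite sign. The adjusted p of the quasi-binomial test was between 0.942 and 0.985 for these 4 tiles. In chr6:68953001-68954000, chr14:53364001-53365000 and chr14:54124001-54125000 only 1 CpG was listed in all 4 libraries.

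Among windows the largest positive difference, +3.51 points, was at chr6:70300001-70400000 in Igk, with 69.7% and 68.1% in the controls and 71.2% and 73.5% in FGR. The most negative, -4.86 points, was at chr12:114300001-114400000 in the V array of Igh, with 63.0% and 60.9% against 56.2% and 57.9%. The groups did not overlap in either, and the adjusted p of the quasi-binomial test was 0.724 for both. The heavy chain interval had 12.5% ± 0.609 in the controls and 20.2% ± 2.58 in FGR (SD, n = 2; exact permutation p = 0.333). The 2 groups did not overlap there, but FGR 1 listed only 10 CpGs in the interval, against 21 to 31 in the others, and 6 in the run of low CpGs, against 16 to 19. On the run itself, which was cut on the summed reads of both groups, the groups overlapped, at 4.31% and 0% in the controls and 2.94% and 4.83% in FGR.

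Genes that act on these loci were compared over the gene with 1 kb on each side. Of 17 genes of the recombination machinery 0 were called (quasi-binomial test, 0% of all 19868 genes called), and 0 had an unadjusted p below 0.05 (6.64% of all genes). Of the 17, 7 had the higher mean in FGR and 10 the lower. The median difference was -1.40 points, against -1.26 over all genes, of which 7246 were higher and 12622 lower in FGR. Rag1 and Rag2, the recombinase, had 80.5% and 64.1% in the controls and 79.1% and 66.3% in FGR. Dntt, the polymerase that adds bases at the joints, had 80.04% and 81.2%. Lig4, the ligase that seals the joints, had 61.2% and 60.8% in the controls and 34.7% and 51.9% in FGR, and Poll, a repair polymerase, had 83.7% and 77.7% against 75.0% and 67.2%. Hmgb2 and Hmgb1, DNA-bending cofactors of the recombinase, differed by +8.53 and +2.71 points.

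Of 10 B cell genes 0 were called, with 3 higher and 7 lower and a median difference of -1.79 points, beside the 7246 higher and 12622 lower of all genes with their median of -1.26. Pax5, the factor that commits cells to the B lineage, had 67.3% and 68.6% in the controls and 65.5% and 66.0% in FGR, and Cd22, a B cell inhibitory receptor, differed by -7.24 points. Ms4a1 (CD20) and Cd79b, a chain of the B cell receptor complex, differed by +7.27 and +10.6 points. Of 12 T cell genes 0 were called, with 4 higher and 8 lower and a median of -0.958 points. Cd5 and Bcl11b differed by -5.13 and -2.77 points, and Zap70 and Tcf7, a receptor kinase and a T lineage factor, by +6.14 and +3.17. No gene of either list had an unadjusted p below 0.05 in the quasi-binomial test.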

How the data were processed

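Bisulfite reads of 4 libraries had been processed with Trim Galore 0.6.5, Bismark (version not given in the sources used here) and methylKit 1.28.0 on mm10, per the submitters' processing notes. Each deposited table gives, per the file headers, the coverage of a cytosine as a count of reads and the percent of C and of T among them. The lowest deposited coverage is 5, so which CpGs are listed depends on depth. No bisulfite conversion rate is given in the sources used here.

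Methylated reads (coverage times percent, whole within 0.02 reads) were summed over both strands per CpG, and the 0.1% of CpGs with the highest coverage in each library were left out. The level of a region is the percent of its reads that were methylated, and a read over several CpGs counts several times. SDs are over libraries. Intervals and limits reflect counting error alone, because duplicates of a molecule cannot be recognised. The 95% Wilson width of a locus level in 1 library was 0.404 to 3.35 points. Tiles, windows and protein-coding genes were fitted over all autosomes with a quasi-binomial model that compared the groups without further terms. Its dispersion was moderated with squeezeVar of limma 3.58.1 (R 4.3.3), using a coverage trend and a floor of 1. The test was also run on simulated data, and the size of difference it can call is not given here. The counts of 0 calls therefore set no limit on the differences present. Python 3.11.15 with numpy 2.4.6 and scipy 1.17.1 gave the exact permutation tests.

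Named regions were the 2 lowest and 1 highest tile per locus, the 4 largest differences each way, the extreme windows and V segments, the constant region genes, and per list 2 genes each way by p with Rag1, Rag2 and Dntt. The loci, members and lists were chosen with earlier results of these data known. Gene positions are of RefSeq GRCm38.p6. Chromosomes X and Y were not used in tests.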

Additional observations from a re-analysis of the deposited data

How the results depend on the processing

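Tiles, windows and list genes gave 0 calls under each of 9 alternatives (limma on log-ratios, CpGs listed in all libraries, at least 5 CpGs and 20 reads, the highest coverage kept, a replicate block, and each library left out in turn). A count of 0 says little where few regions could be tested: CpGs listed in all libraries left 313 of 1010 tiles, 1 of 79 windows and 30 of 39 list genes, and 5 CpGs and 20 reads left 209 tiles. The locus minus flank differences kept their sign in all 50 alternatives and FGR minus control in 49 of 50. Their sizes changed more. Locus minus flank ranged from -20.9 to -12.8 points in Igh, -13.7 to -6.06 in Igk, -6.77 to -1.73 in Igl, -4.68 to -0.295 in Tcra/Tcrd and -4.17 to -0.677 in Tcrb. FGR minus control ranged from -1.44 to -0.560 in Igh, -1.42 to -0.301 in Igk, -1.63 to -0.225 in Tcra/Tcrd and -1.98 to -0.996 in Tcrb. In Igl it ranged from -1.22, on CpGs listed in all libraries, to 3.27 with at least 10 reads per CpG. On the same CpGs the segment differences were -0.552 in Igh and 15.8 in Igl, the tile chr6:69849001-69850000 was at 5.95 points, and the edge minus inside difference of Igk was 3.601. With at least 10 reads per CpG the segment difference of Igk was 0.497. The segment difference of Tcra/Tcrd ranged from -0.939 to 1.01 points when each library was left out in turn, and was -0.939 without FGR 1 and -0.483 without FGR 2. The cause of these changes was not tested. Counting CpGs over all tables together gave 5567 member tiles. The replicate numbers are shared between the groups, and nothing in the labels says that they mark a pair. The differences between replicates 1 and 2 of the 2 groups correlated at 0.0295 over 23710 windows, and the replicate block called 0 tiles and 0 windows in the loci. Depth limits the single tiles and segments most, where 1010 of 5162 tiles and 119 of 520 V segments could be compared in all 4 libraries.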
